A study of Oncorhynchus mykiss with 6 samples.

Results

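Ribosome footprints of 30 entries were examined in rainbow trout liver (Oncorhynchus mykiss, a salmonid of cold water): the enzymes of amino acid and carbohydrate metabolism left once a set of glucose, proline, glycine, heme and collagen enzymes was put aside. They are all entries of the deposited table whose KEGG category column begins with amino acid or carbohydrate metabolism, less 10 entries left out by symbol. This left 30 of the 40 entries of the 2 categories, 17 of amino acid and 13 of carbohydrate metabolism, among 1213 listed genes, of which 533 carry a KEGG category. The 30 entries carry 27 distinct symbols, because Uap1, tdh and pfkfb3 have 2 entries each. The rule names no measured value, but the table itself lists only genes that the authors selected as changed.

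The table compares 2 groups of 3 liver libraries, a control group and a heat stress group at 24 °C for 8 h. For the control temperature the labels differ, with 18 °C in the source names and 20 °C in the treatment protocol. The labels give no strain or age of the fish and name the molecule as nuclear RNA. They do not state that each library is a different animal, and the spread behind the p-values may therefore be technical in part. Ribosome profiling sequences the short mRNA fragments, called footprints, that translating ribosomes shield from nuclease.

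Liver stores and releases glucose, breaks down surplus amino acids and builds sugars for glycoproteins. The hexosamine pathway turns fructose 6-phosphate and glutamine into UDP-N-acetylglucosamine (UDP-GlcNAc), the sugar donor for glycosylation, and part of it goes on to sialic acid. Fructose 2,6-bisphosphate, made and removed by the PFKFB enzymes, is a strong activator of glycolysis, and glycogen is the stored form of glucose. Methionine is activated to S-adenosylmethionine, the main methyl donor, whose spent form feeds cysteine synthesis and whose decarboxylated form feeds the polyamines. These roles, and those given below for single enzymes, are known mostly from mammals.

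Levels are in FPKM, footprints scaled to gene length and to library depth, as deposited by the authors, and are given as mean ± SD of 3 libraries. The listed genes held 362308 to 863769 footprints per library, and depth, recovered from the ratio of count to FPKM and set against control replicate 1, ranged from 41.4% to 82.0% in the other 5 libraries. Differences were tested with limma-voom on the footprint counts at these depths, with Benjamini-Hochberg adjustment over about 29300 genes and a threshold of 0.05, and log2 fold changes are heat stress over control with their standard error (SE). "Rose" and "fell" are used only of genes past this test. Of 11 hepatocyte marker symbols, 4 were listed, in 6 entries whose summed level was 28350 to 29521 FPKM in control and 10031 to 16128 FPKM in heat stress. No marker of red blood cells, leukocytes, stellate cells or pancreas was listed. Because only selected genes are listed, these lists do not measure the makeup of the tissue, and its part in the results was not tested. In such bulk samples, fewer cells of a type and less RNA per cell cannot be told apart, and footprints depend on the amount of mRNA as well as on its translation.

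Of the 30 enzymes, 29 had enough footprints to be tested, and 23 of them (79.3%) passed the test, beside 1008 of all 1152 listed genes tested, or 87.5%. Of the 29, 16 rose (55.2% of those tested), where 71.3% of all listed genes tested did. A further 7 fell (24.1%), where 16.2% of all listed genes tested did. In the authors' deposited table, 17 of the 30 were higher and 13 lower in heat stress, so 43.3% were lower beside 23.8% of all listed genes. Other metabolic categories had larger lower shares: 48.4% of 31 lipid, 55.6% of 9 nucleotide and 66.7% of 6 energy genes. The shares were small in folding (3.57% of 84) and translation (13.6% of 22). The ranges of the 2 groups did not overlap in any of the 30 enzymes, nor in 98.7% of all listed genes. The table had been selected on these same libraries for a change of at least 2-fold, so these shares describe the list and say little about the genome. The median log2 fold change of the tested enzymes was 1.38, beside 1.66 for all listed genes tested.

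**Figure D1:**
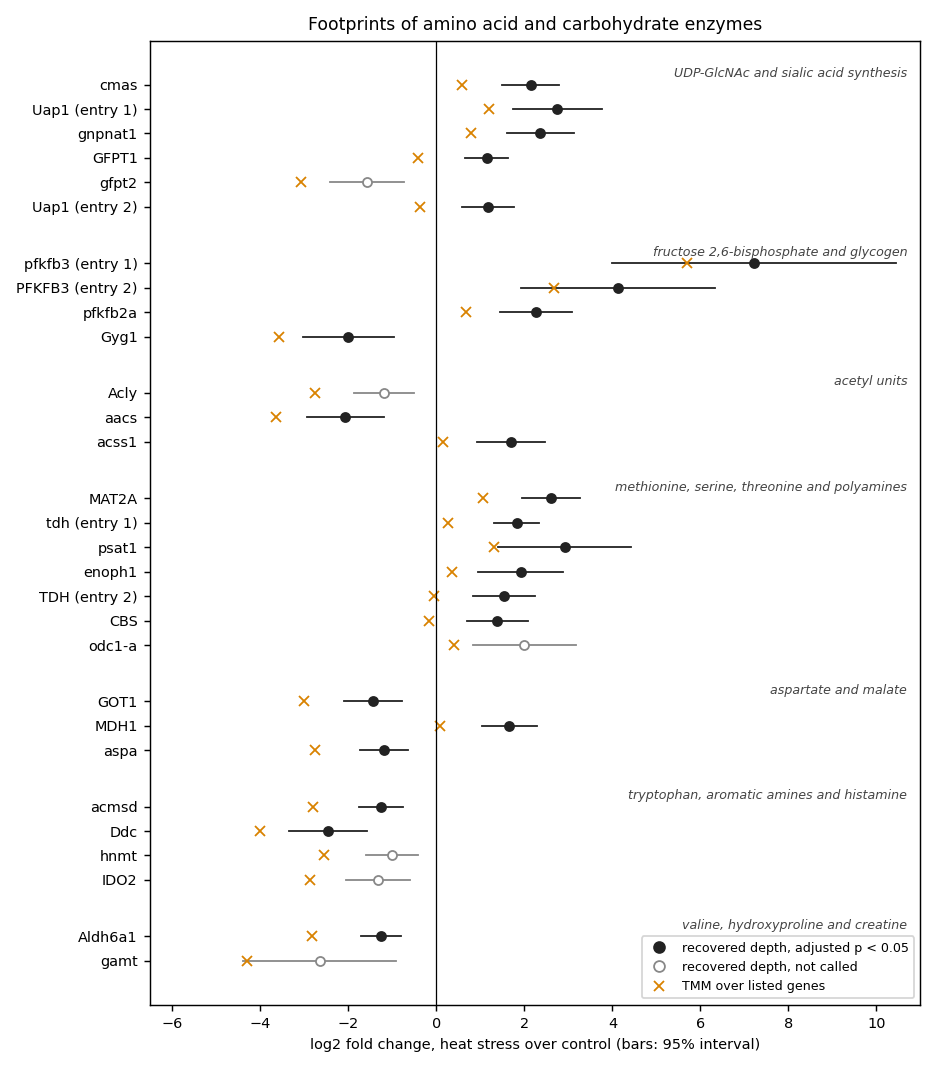
Log2 fold change, heat stress over control, of the 29 tested enzymes, ordered by role, from limma-voom at recovered depth. Circles are estimates and bars their 95% interval, filled where the adjusted p was under 0.05 and open where it was not. Orange crosses mark the estimate under TMM (trimmed mean of M-values) factors taken over the listed genes, which moved every value down and put GFPT1, Uap1 (entry 2), TDH (entry 2) and CBS just below 0.

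How the libraries are scaled matters for every rise below. Scaling by TMM, which takes most genes as unchanged, shifted the median of all tested genes by -1.55 on the log2 scale. By limma-voom, 88 of all 1152 listed genes tested then rose and 267 fell. Of the 30 enzymes, 0 then rose while 12 fell. At an unadjusted p under 0.05, 5 were higher under TMM: MAT2A, gnpnat1, Uap1 (entry 1) and both pfkfb3 entries. Under it the log2 fold change of 4 enzymes, GFPT1, the second Uap1 entry, the second TDH entry and CBS, went below 0, and none of the 4 passed the test there. All 7 enzymes that fell at recovered depth also fell under TMM. That scaling moved the estimate of every tested enzyme down, so it could hardly undo a fall and does not test the falls. Each rise below is therefore one relative to sequencing depth. Single libraries mattered too. Control replicate 1 held the lowest control level of 18 of the 30 enzymes (42.5% of all listed genes) and control replicate 2 the highest of 19 (41.2% of all listed genes). Of the 23 calls, 8 held with each of the 6 libraries left out in turn: cmas, Uap1 (entry 1), gnpnat1, pfkfb2a, MAT2A and tdh (entry 1), which rose, and Ddc and Aldh6a1, which fell. Calls also dropped in most such fits over all listed genes. There, 446 to 833 rose, against 821 with all libraries, and 66 to 139 fell, against 187. How many listed genes held in every such fit was not counted, so the losses are not particular to these enzymes on this evidence.

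In control liver the levels of the higher and the lower enzymes overlapped, with different medians. The 17 that the authors' table gives as higher had control levels from 0.0767 to 29.9 FPKM, with a median of 3.87 FPKM, close to the median of 3.94 FPKM of all listed genes higher in heat stress. The 13 that it gives as lower had control levels from 1.93 to 219 FPKM, with a median of 14.8 FPKM, beside 11.4 FPKM for all listed genes lower in heat stress.

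Of the 6 entries of UDP-GlcNAc and sialic acid synthesis, 5 rose at recovered depth, beside 71.3% of all listed genes tested, and 1, gfpt2, was lower without passing the test. The 5 run from the first step of the pathway to the activation of sialic acid. Under TMM none of the 5 passed and 2 of them, GFPT1 and the second Uap1 entry, had log2 fold changes of -0.42 and -0.38. GFPT1, which makes glucosamine 6-phosphate and sets the pace of the pathway, stood at 23.4, 36.2 and 30.0 FPKM in control replicates 1, 2 and 3 and at 60.8, 69.0 and 65.3 FPKM in heat stress replicates 1, 2 and 3. All 3 heat stress libraries lay close together and above all controls. The log2 fold change was 1.14 ± 0.22 (adjusted p = 0.0144, limma-voom), and the call was lost without control replicate 1 or 3 or heat stress replicate 2 or 3, at adjusted p from 0.0556 to 0.0677.

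Its paralogue gfpt2, listed under the same KEGG orthology entry, had lower values in heat stress: 5.96, 5.69 and 4.05 FPKM in control and 1.03, 2.15 and 2.41 FPKM in heat stress. Every heat stress library was below every control library. The log2 fold change of -1.57 ± 0.38 missed the threshold (adjusted p = 0.0505, limma-voom), while under TMM it was -3.08 and passed. Within each library, where depth and scaling cancel, 5 pairs of enzymes are given as a ratio. The pairs were picked with their values known, mostly for opposite directions, so the ratios are a description with no test. GFPT1 was 3.92, 6.36 and 7.41 times the level of gfpt2 in control and 59.1, 32.1 and 27.1 times in heat stress. The sum of both was 35.1 ± 6.31 FPKM in control libraries against 66.9 ± 4.71 FPKM in heat stress.

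The later steps of the pathway rose as well at recovered depth, with log2 fold changes above 0 under TMM in all but the second Uap1 entry. Gnpnat1, which acetylates glucosamine 6-phosphate, was at 3.52, 7.99 and 5.73 FPKM in control and 24.4, 29.5 and 29.2 FPKM in heat stress. The lowest heat stress library was well above the highest control, and the log2 fold change was 2.36 ± 0.34 (adjusted p = 0.00316, limma-voom) and 0.79 under TMM, where it did not pass. Uap1, which joins N-acetylglucosamine to UDP, has 2 entries. The first was at 1.21, 1.26 and 0.71 FPKM in control and 6.20, 11.8 and 6.32 FPKM in heat stress, a log2 fold change of 2.75 ± 0.45 (adjusted p = 0.00649, limma-voom). The second was at 4.75, 8.21 and 6.39 FPKM in control and 13.7, 16.6 and 12.5 FPKM in heat stress, a log2 fold change of 1.17 ± 0.27 (adjusted p = 0.0373, limma-voom). That call was lost without any single one of the 6 libraries, at adjusted p from 0.0501 to 0.229.

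The more abundant Uap1 entry in control was thus the second, at 3.93, 6.52 and 9.0 times the first in control libraries but 2.21, 1.4 and 1.98 times in heat stress libraries. Reads of near-identical copies can be split between entries in counting, which is uncertain here. The summed level of both entries, which is less open to that, was 7.51 ± 1.79 FPKM in control libraries against 22.4 ± 5.24 FPKM in heat stress. Cmas, which couples sialic acid to CMP for transfer to glycoproteins, was at 2.98, 4.51 and 4.63 FPKM in control and 15.4, 15.1 and 21.0 FPKM in heat stress. It had the smallest adjusted p of the 6 entries, with a log2 fold change of 2.14 ± 0.29 (adjusted p = 0.00221, limma-voom), and 0.57 under TMM, where it did not pass.

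**Figure D2:**
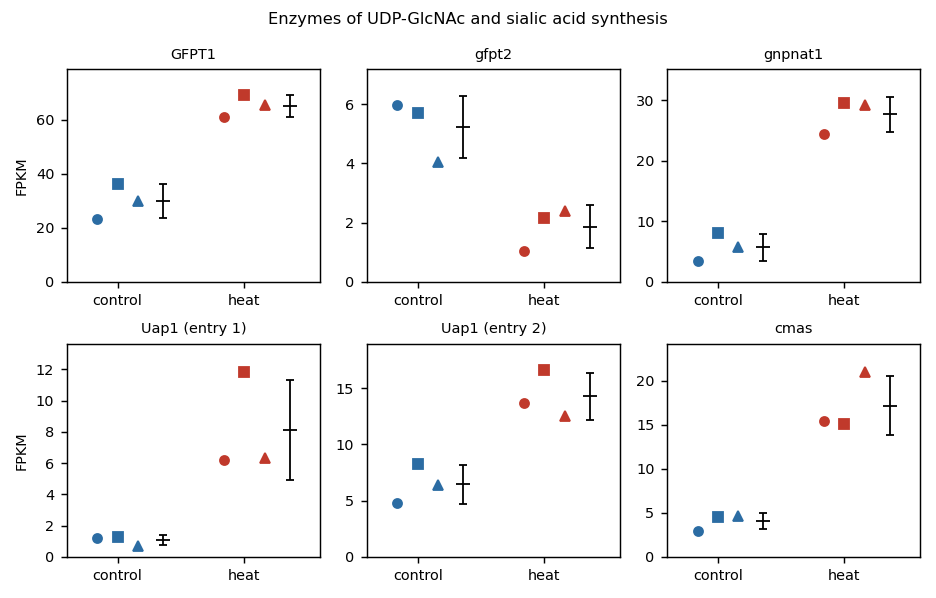
FPKM of the 6 entries of UDP-GlcNAc and sialic acid synthesis in each library, on linear axes that start at 0 and differ between panels. Circles, squares and triangles are replicates 1, 2 and 3, and the black dash and bar give the mean ± SD of 3 libraries. In 5 panels every heat stress library lies above every control library, and in the gfpt2 panel every one lies below. The groups did not overlap in 98.7% of all listed genes either. The log2 fold changes of GFPT1 and Uap1 (entry 2) were below 0 under TMM.

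Among the enzymes of fructose 2,6-bisphosphate and glycogen, all 3 PFKFB entries rose at recovered depth, beside 71.3% of all listed genes tested. The glycogen primer Gyg1 fell, where 16.2% of all listed genes tested did. Under TMM none of the 3 rises passed. Their log2 fold changes there were 5.70 for pfkfb3 (entry 1), 2.68 for PFKFB3 (entry 2) and 0.67 for pfkfb2a. Pfkfb3 (entry 1), a bifunctional enzyme that in mammals mainly makes fructose 2,6-bisphosphate, was nearly unread in control, at 0, 0.23 and 0 FPKM, and at 3.62, 29.0 and 30.0 FPKM in heat stress. In all, 2 footprints in the control libraries stand against 439 in heat stress, a ratio per depth of 272 with an exact 95% counting interval of 74.8 to 2250, which covers counting error only. Heat stress replicate 1 lay far below the other heat stress libraries. The call (adjusted p = 0.0191, limma-voom) was lost without control replicate 1 or 3 or heat stress replicate 2 or 3, at adjusted p from 0.0613 to 0.155.

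The second PFKFB3 entry showed the same order of libraries within heat stress. Heat stress replicate 1 was the lowest heat stress library in 54.9% of all listed genes, and reads may be split between the 2 entries in counting. The shared order is therefore no independent support. This second entry was low in control. It was at 0.36, 0 and 0.27 FPKM in control and 1.20, 4.95 and 6.89 FPKM in heat stress, a log2 fold change of 4.13 ± 1.0 (adjusted p = 0.0499, limma-voom). That call held only without heat stress replicate 1, and was otherwise lost at adjusted p from 0.0791 to 0.195. Together the 2 entries stood at 0.287 ± 0.0666 FPKM in control libraries against 25.2 ± 17.7 FPKM in heat stress. Pfkfb2a, a relative named for the isoform that is abundant in mammalian heart, was more even. It was at 1.09, 1.35 and 1.20 FPKM in control and 7.50, 5.05 and 5.37 FPKM in heat stress, a log2 fold change of 2.25 ± 0.37 (adjusted p = 0.0063, limma-voom).

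Gyg1, glycogenin, is the protein on which a new glycogen chain is started. Its level was 8.51, 8.89 and 7.47 FPKM in control and 2.79, 0.70 and 3.17 FPKM in heat stress, so that the control libraries lay close together and the heat stress libraries clearly below them. The log2 fold change was -2.0 ± 0.47 (adjusted p = 0.0434, limma-voom), and -3.57 under TMM. At recovered depth the call was lost without any single one of the 6 libraries, at adjusted p from 0.0675 to 0.131. Pfkfb2a was 0.128, 0.152 and 0.161 times the level of Gyg1 in control libraries and 2.69, 7.21 and 1.69 times in heat stress libraries. Gyg1 had only 14, 2 and 19 footprints in heat stress replicates 1, 2 and 3, so the ratio of 7.21 rests on 2 Gyg1 footprints.

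The enzymes of acetyl units did not move one way. Acly, ATP citrate lyase, which makes cytosolic acetyl-CoA for fatty acid and sterol synthesis, was at 78.2, 203 and 156 FPKM in control and 60.0, 56.4 and 61.9 FPKM in heat stress. The controls spread widely, with replicate 1 nearest to heat stress, and the log2 fold change of -1.19 ± 0.31 did not pass (adjusted p = 0.0841, limma-voom). Aacs, which activates acetoacetate for lipid synthesis in the cytosol, had the highest control level of the 30 enzymes. It stood at 121, 314 and 221 FPKM in control and 70.5, 27.2 and 59.3 FPKM in heat stress and fell by 2.07 on the log2 scale (SE 0.40, adjusted p = 0.0151, limma-voom). In both genes control replicate 1 was the lowest and control replicate 2 the highest of the controls. The aacs call was lost without control replicate 2 or 3 or heat stress replicate 2, at adjusted p from 0.0544 to 0.062.

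Acss1, the mitochondrial enzyme that activates acetate, was much lower in level and went up, from 2.33, 1.39 and 1.93 FPKM in control to 4.43, 6.44 and 8.04 FPKM in heat stress. The log2 fold change was 1.69 ± 0.35 (adjusted p = 0.0215, limma-voom), but only 0.16 under TMM, where it did not pass. At recovered depth the call held only without heat stress replicate 1, and was otherwise lost at adjusted p from 0.0666 to 0.103. The ratio of acss1 to Acly was 0.0298, 0.00683 and 0.0123 in control libraries and 0.0738, 0.114 and 0.130 in heat stress libraries.

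The aspartate and malate enzymes also split in direction: GOT1 and aspa fell, and MDH1 rose at recovered depth. GOT1, the cytosolic aspartate aminotransferase, was at 11.2, 18.2 and 14.9 FPKM in control and 6.44, 4.71 and 4.75 FPKM in heat stress. It fell by 1.43 on the log2 scale (SE 0.30, adjusted p = 0.0213, limma-voom), a call lost without replicate 2 or 3 of either group, at adjusted p from 0.072 to 0.13. MDH1, the cytosolic malate dehydrogenase that works beside GOT1 in the malate-aspartate shuttle, was at 5.52, 9.49 and 5.82 FPKM in control and 25.3, 20.8 and 18.0 FPKM in heat stress. It rose by 1.65 on the log2 scale (SE 0.28, adjusted p = 0.00778, limma-voom), a call lost only without control replicate 1 (adjusted p = 0.0595). Under TMM its log2 fold change was 0.08 and did not pass.

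Within libraries, MDH1 was at 0.494, 0.521 and 0.392 times the level of GOT1 in control and 3.93, 4.41 and 3.78 times in heat stress. The mean ratio was 0.469 ± 0.068 in control and 4.04 ± 0.326 in heat stress. Aspa, aspartoacylase, splits N-acetylaspartate into acetate and aspartate. It was at 23.9, 23.1 and 20.7 FPKM in control and 10.3, 11.6 and 8.36 FPKM in heat stress, and fell by 1.19 on the log2 scale (SE 0.24, adjusted p = 0.0196, limma-voom). Both groups were tight, with no overlap, but the call was lost without any 1 control library or without heat stress replicate 3, at adjusted p from 0.0585 to 0.125.

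**Figure D3:**
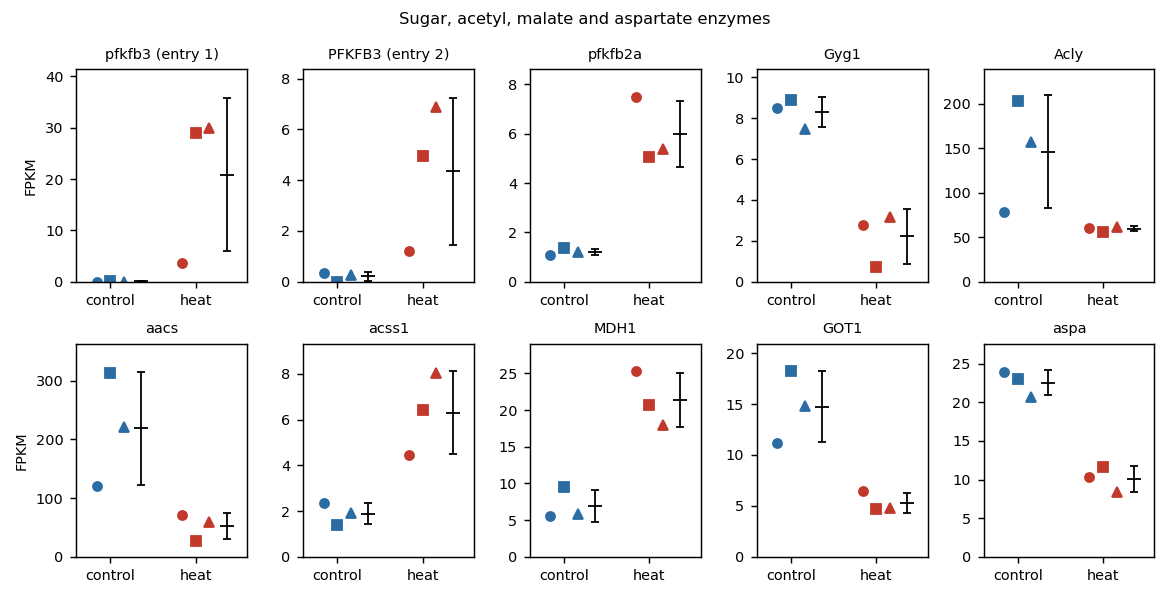
FPKM of the PFKFB, glycogenin, acetyl, malate and aspartate enzymes in each library, on linear axes that start at 0 and differ between panels. Circles, squares and triangles are replicates 1, 2 and 3, and the black dash and bar give the mean ± SD of 3 libraries. Heat stress replicate 1 is the lowest heat stress library in both pfkfb3 panels, and control replicate 1 the lowest control in the Acly and aacs panels. They were so in 54.9% and 42.5% of all listed genes.

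**Figure D4:**
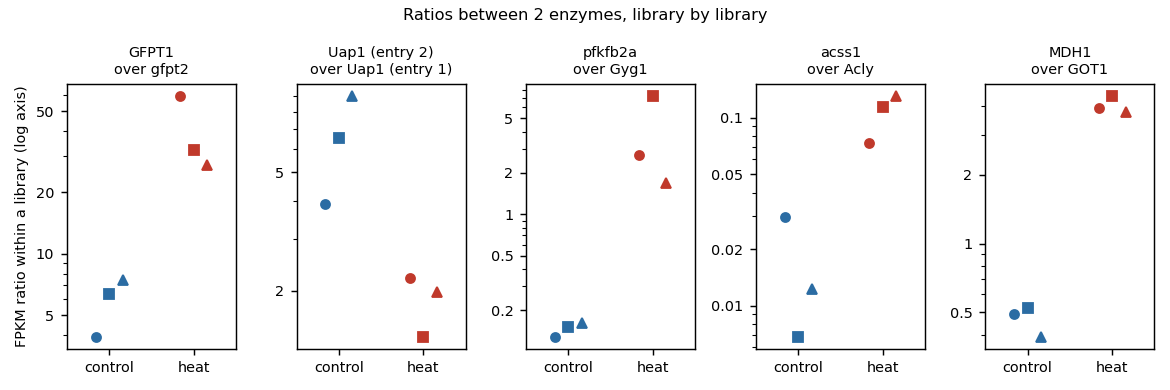
Ratio of the FPKM of 2 enzymes within each library, on logarithmic axes that differ between panels. Circles, squares and triangles are replicates 1, 2 and 3. The pairs were chosen after their values were seen, and 4 of the 5 join an enzyme that was higher with one that was lower. The ratio of MDH1 to GOT1 goes from between 0.392 and 0.521 in control to between 3.78 and 4.41 in heat stress.

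Of the 7 entries of methionine, serine, threonine and polyamine metabolism, 6 rose at recovered depth, beside 71.3% of all listed genes tested, and odc1-a did not pass. Under TMM none of the 6 passed, and 2 of them, the second TDH entry and CBS, had log2 fold changes of -0.05 and -0.18. MAT2A makes S-adenosylmethionine and is in mammals the form found outside the mature liver. It was at 5.69, 6.13 and 10.3 FPKM in control and 33.8, 54.8 and 42.6 FPKM in heat stress, which is at least 3 times the highest control in every heat stress library. Its log2 fold change of 2.60 ± 0.29 had the smallest adjusted p of the 30 enzymes (0.000715, limma-voom), and was 1.05 under TMM.

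Threonine dehydrogenase, which turns threonine toward glycine and acetyl-CoA and is not functional in humans, had the highest level in heat stress of the enzymes that rose. Its first entry was at 26.7, 28.1 and 29.7 FPKM in control and 79.7, 130 and 96.2 FPKM in heat stress, a log2 fold change of 1.83 ± 0.23 (adjusted p = 0.00138, limma-voom). Its second entry was at 3.58, 4.47 and 3.55 FPKM in control and 15.2, 8.36 and 10.4 FPKM in heat stress, a log2 fold change of 1.53 ± 0.32 (adjusted p = 0.022, limma-voom). The call of the second was lost without any 1 control library or without heat stress replicate 3, at adjusted p from 0.0632 to 0.136. The first entry's mean was 7.28 times that of the second in control and 9.02 times in heat stress, and the 2 entries put their highest heat stress level in different libraries, replicates 2 and 1. Both together went from 32.0 ± 1.55 to 113 ± 22.7 FPKM.

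Psat1, which forms phosphoserine on the way to serine, was at 0.62, 1.47 and 1.14 FPKM in control and 11.8, 2.71 and 10.8 FPKM in heat stress. Heat stress replicate 2 was less than 2 times the highest control, and the call (log2 fold change 2.91 ± 0.68, adjusted p = 0.0425, limma-voom) held only without heat stress replicate 2 and was otherwise lost, at adjusted p from 0.0786 to 0.266. Enoph1, an enzyme of the pathway that salvages methionine from the by-product of polyamine synthesis, was at 2.55, 3.77 and 2.90 FPKM in control and 10.8, 7.69 and 18.0 FPKM in heat stress. It rose by 1.91 on the log2 scale (SE 0.43, adjusted p = 0.0351, limma-voom). CBS, which joins homocysteine and serine on the way to cysteine, was at 2.74, 3.76 and 5.29 FPKM in control and 7.47, 10.1 and 12.0 FPKM in heat stress. It rose by 1.38 on the log2 scale (SE 0.31, adjusted p = 0.036, limma-voom). The enoph1 call was lost without any 1 control library or without heat stress replicate 3, at adjusted p from 0.0781 to 0.215. The CBS call was lost without control replicate 1 or 2 or heat stress replicate 2 or 3, at adjusted p from 0.114 to 0.254.

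Odc1-a, ornithine decarboxylase, makes putrescine, the first polyamine. It was at 1.01, 4.49 and 3.99 FPKM in control and 10.6, 15.1 and 6.53 FPKM in heat stress. The groups did not overlap, but control replicate 1 lay far below the other controls, and the log2 fold change of 1.99 ± 0.53 did not pass (adjusted p = 0.0899, limma-voom).

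Of the 4 enzymes of tryptophan, aromatic amines and histamine, acmsd and Ddc fell, where 16.2% of all listed genes tested did. The other 2, hnmt and IDO2, were lower without passing, whereas all 4 passed under TMM, which moved every estimate down. The groups did not overlap in any of the 4, nor in 98.7% of all listed genes. Acmsd, which diverts a tryptophan breakdown product from NAD synthesis to full oxidation, was at 83.2, 90.5 and 77.2 FPKM in control and 43.4, 34.8 and 28.2 FPKM in heat stress. It fell by 1.26 on the log2 scale (SE 0.22, adjusted p = 0.00968, limma-voom), a call lost only without heat stress replicate 3 (adjusted p = 0.0512). Ddc, the decarboxylase that yields serotonin and dopamine, was at 10.9, 12.3 and 11.2 FPKM in control and 1.59, 5.33 and 1.4 FPKM in heat stress. It fell by 2.47 on the log2 scale (SE 0.40, adjusted p = 0.00608, limma-voom), and heat stress replicate 2 lay above the other heat stress libraries.

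IDO2, a relative of the enzyme that opens the tryptophan ring, was at 7.61, 6.39 and 5.55 FPKM in control and 2.20, 2.75 and 2.77 FPKM in heat stress. Its log2 fold change was -1.33 ± 0.33 (adjusted p = 0.0603, limma-voom). Hnmt, which inactivates histamine by methylation, was at 24.6, 30.0 and 23.4 FPKM in control and 10.3, 10.9 and 17.2 FPKM in heat stress. Its log2 fold change of -1.02 ± 0.27 was the smallest of the 29 (adjusted p = 0.0851, limma-voom), and its highest heat stress library came nearest to the controls.

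The last 3 enzymes act in valine, hydroxyproline and creatine metabolism. Aldh6a1, which oxidises methylmalonate semialdehyde in the mitochondrial breakdown of valine, was at 69.0, 80.2 and 60.9 FPKM in control and 32.2, 28.2 and 27.9 FPKM in heat stress. It fell by 1.26 on the log2 scale (SE 0.21, adjusted p = 0.00606, limma-voom). Gamt, the last enzyme of creatine synthesis, was at 3.38, 9.69 and 10.6 FPKM in control and 2.40, 1.23 and 0.31 FPKM in heat stress. Control replicate 1 was close to heat stress replicate 1, and the log2 fold change of -2.65 ± 0.79 did not pass (adjusted p = 0.171, limma-voom), though it did under TMM at -4.30. L3hypdh, a dehydratase of hydroxyproline, was at 0.40, 1.93 and 3.47 FPKM in control and 0 in all 3 heat stress libraries. With 3, 11 and 17 footprints in control it did not reach 10 footprints in 3 libraries and was not tested. Against a floor of 3 footprints over the heat stress group it was at least 8.35-fold lower. That bound takes the 31 control footprints as exact, so it leaves out their counting error and the spread between libraries.

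**Figure D5:**
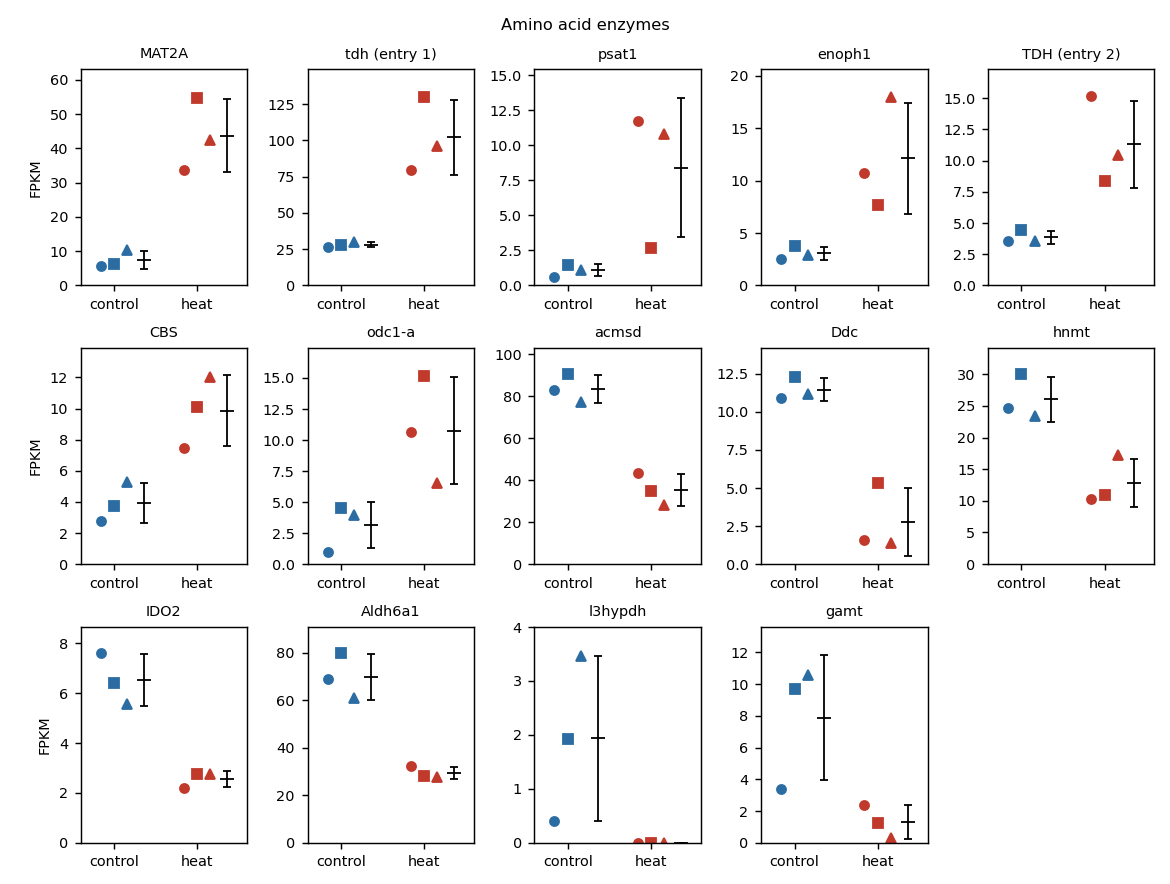
FPKM of 14 amino acid enzymes in each library, on linear axes that start at 0 and differ between panels. Circles, squares and triangles are replicates 1, 2 and 3, and the black dash and bar give the mean ± SD of 3 libraries. The 7 enzymes of methionine, serine, threonine and polyamines lie higher in heat stress, of which TDH (entry 2) and CBS had log2 fold changes below 0 under TMM, and the other 7 lie lower.

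The wider pathways were looked at through 14 lists holding 349 symbols of amino acid and carbohydrate enzymes. The table listed 52 entries that matched, 28 of them among the enzymes above. Of the other 24, 23 were tested, of which 11 rose (47.8%, beside 71.3% of all listed genes tested) and 8 fell (34.8%, beside 16.2%). Under TMM, 4 of the 11 rises still passed, those of plod3, P4HA1 and the first entries of colgalt1 and P4HA2, which modify collagen. All 8 falls passed too, but TMM moved these estimates down as well, so this does not test the falls. Near the glycogen enzymes, GYS1, a glycogen synthase that extends the chain begun by glycogenin, had 47 footprints in control and none in heat stress, at least 12.7-fold lower against the same floor. Its control level was only 1.22 ± 0.310 FPKM. Pdk2, a kinase that switches off pyruvate dehydrogenase, fell from 106.4 ± 13.6 to 31.5 ± 6.30 FPKM (adjusted p = 0.00137, limma-voom). Beside the methionine enzymes, gnmt, which spends S-adenosylmethionine on glycine, fell from 688 ± 196 to 282 ± 28.3 FPKM (adjusted p = 0.0192, limma-voom), a call lost without replicate 2 or 3 of either group, at adjusted p up to 0.108. Hmgcs1, the cytosolic synthase next to aacs in sterol precursor synthesis, fell from 11.4 ± 3.70 to 3.92 ± 0.336 FPKM (adjusted p = 0.029, limma-voom), a call that held only without control replicate 1 and was otherwise lost at adjusted p up to 0.137. Of the glucose synthesis genes, pck1, which commits oxaloacetate to glucose, rose from 12.0 ± 3.18 to 56.9 ± 25.9 FPKM (adjusted p = 0.0088, limma-voom), a call lost without control replicate 1 (adjusted p = 0.0655) and under TMM. G6PC, which releases free glucose, split between its entries. The abundant first entry fell from 328 ± 94.3 to 136 ± 35.2 FPKM (adjusted p = 0.0268, limma-voom), a call lost without control replicate 1 or 2 or heat stress replicate 2 or 3, at adjusted p up to 0.133. The second entry rose from 4.91 ± 1.36 to 19.0 ± 5.19 FPKM (adjusted p = 0.0064, limma-voom), a call lost without control replicate 1 (adjusted p = 0.0537) and under TMM.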

How the data were processed

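Ribosome footprints of trout liver were sequenced from 3 control and 3 heat stress libraries, prepared with a small RNA kit per the labels' protocols. The authors deposited 1 table of footprint counts, FPKM, log2 fold change, p-value and FDR per gene, with units per the file headers. Bowtie2 and edgeR stand in the submitters' processing notes, with build, annotation, read counter and strand setting not given in the sources used here. Cells are 8 characters wide, so identifiers are cut and neither coordinates nor sequences are given. The authors' deposited log2 fold change was used only for its sign.

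Relative depth came from count divided by FPKM over 94 abundant genes (minimum 200 footprints and 10 FPKM). limma-voom (limma 3.58.1, R 4.3.3) used these depths as library sizes, on the 1152 genes that reached 10 footprints at equal depth in 3 libraries and a total of 15, and p-values were adjusted over about 29300 genes, a number estimated from the authors' FDR, rank and p-value (27968 to 29444 over 86 genes). The count columns were entered for the unit check as unspecified, since their cells touch. Intervals and tables used Python 3.11.15, scipy 1.17.1 and pandas 2.3.3. The fit was tried on simulated counts. Replicates differed by more than sampling noise, with chi-square over degrees of freedom from 14.7 to 33.2.

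The enzymes, lists and tests were chosen with earlier results of these data known, and the role groups and ratio pairs after their values were seen. Library values are given for the 4 smallest p per role group, for levels of at least 50 FPKM and for entries sharing a symbol, and other entries were added to these after their values were seen. Genes outside the 30 were named only from the lists and past the test, and 1 such gene is not reported here. Alternatives were 3 other scalings, 2 filters, 2 pseudocounts, the adjustment, the replicate block and each library left out.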

Additional observations from a re-analysis of the deposited data

How the results depend on the processing

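The direction of the balance depended on the scaling. The 16 enzymes that rose became 0 with TMM or median-of-ratios factors and 1, MAT2A, with summed listed footprints as library sizes, and the 7 that fell became 12, 12 and 11. At an unadjusted p under 0.05, limma-voom had 5, 5 and 12 enzymes higher under these scalings. Among all listed genes, the 821 that rose became 88, 88 and 207, and the 187 that fell became 267, 266 and 262. The enzymes' median log2 fold change of 1.38 became -0.18, -0.16 and 0.45, and that of all listed genes, 1.66, became 0.10, 0.12 and 0.73. With TMM and median-of-ratios factors, the log2 fold change was -0.42 and -0.40 for GFPT1, -0.38 and -0.37 for Uap1 (entry 2), -0.050 and -0.028 for TDH (entry 2), and -0.18 and -0.16 for CBS, none past the test. These scalings take most listed genes, or their sum, as equal between libraries, although each gene was selected as changed.

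With at least 10 FPKM in 3 libraries, fewer genes were tested: 6 enzymes rose, with a median over the 15 tested of -1.02, and 459 and 97 listed genes rose and fell. Adjusted over the listed genes tested alone, 12 enzymes fell, beside 270 listed genes. On log2(FPKM + 1) the median of all listed genes was 1.39. Leaving out 1 library at a time gave 6 to 14 enzymes that rose and 3 to 7 that fell, beside 446 to 833 and 66 to 139 listed genes. The fewest rose, 6, without control replicate 1, and 3 fell without replicate 2 or 3 of the control or replicate 3 of heat stress. On log2(FPKM + 1), the calls of Uap1 (entry 2) and CBS were lost (both adjusted p = 0.0535, limma) and gfpt2, IDO2 and gamt were added. On log2(FPKM + 0.1), those of Uap1 (entry 2), CBS and Gyg1 were lost (adjusted p = 0.0718, 0.083 and 0.0837, limma) and IDO2 was added. Neither turned a direction among the 29 tested enzymes, and testing without a filter changed none of their calls. Without the filter l3hypdh was tested too and fell, so that 8 enzymes fell, beside 201 listed genes. Same-numbered libraries did not deviate together (r -0.05, -0.04 and 0.01), so the numbers were not taken as pairs. With the replicate block, 17 enzymes rose and 9 fell, gfpt2, Acly and odc1-a being added. Among all listed genes, 882 rose and 220 fell with this block. Footprint numbers limit l3hypdh (31 in control and 0 in heat stress) and both pfkfb3 entries (2 and 6 in control), as well as gamt (13 in heat stress) and psat1 (20 in control). They also limit Gyg1 (35 in heat stress).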
